A study of Mus musculus with 15 samples.

Results

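Collagen genes encode the chains that wind around each other to form the collagens of the extracellular matrix. They were chosen by symbol, as every gene named Col, a number, the letter a and a number, with at least 10 counts in sum in a table of raw counts. By this rule, 43 of the 49585 genes listed were collagen genes. The annotation holds 44 such symbols, and the other one, Col9a1, had under 10 counts in every table that lists it. Of these, 43 were in the HC table, 41 in the KMC table and 36 in the MC table. By class, 11 encode fibrillar chains, 6 encode type IV chains of the basement membrane, 6 encode type VI chains of beaded filaments, and 20 belong to other classes, among them fibril-associated, multiplexin, short-chain network and transmembrane collagens.

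The study asked what the kinase HPK1 (gene Map4k1) and its kinase-dead mutant M46 do in acinar cells, the enzyme-secreting cells of the pancreas, during pancreatitis and tumorigenesis. RNA-Seq was performed on 15 libraries of C57BL/6 mouse pancreas, each of pooled RNA of 3 mice, and the deposited values were raw counts per gene. MC mice (genotype label HPK1-M46 transgenic) carry the M46 transgene with Bac-cre and were compared with B controls, with 3 libraries in each group and an age of 2 months. Mice of the libraries labelled HC (HPK1/B) are, by that label, carriers of the HPK1 transgene with Bac-cre and were compared with WT controls, with 3 and 2 libraries and an age of 4 months. The series' design text gives cerulein, a secretagogue used to provoke pancreatitis in mice, as the treatment of wild type (B), HC and MC mice, and gives no treatment for KC and KMC mice. KMC mice (genotype label M46/Ras/B, 9 months) were compared with KC mice (genotype label Ras/B, 15 months), with 2 libraries in each group, and both carry Bac-cre. Bac-cre is a tamoxifen-inducible Cre under the acinar-specific elastase I promoter, so the transgenes were directed to acinar cells, while the RNA came from tissue with all its cell types. All libraries are labelled pancreas, and the study's text describes those of KMC and KC mice as pancreatic cancer samples. p-values here measure the spread between libraries, each of which is a pool.

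Fibrillar collagens, led by types I and III, form the cable-like fibrils that give tissue its tensile strength and make up most of a scar. Type IV chains form the sheet-like network of basement membranes under epithelia and around vessels, and type VI chains form filaments that link fibrils to cells. In the pancreas, activated stellate cells and fibroblasts are known as the main source of fibrillar collagen in chronic pancreatitis and in the stroma of pancreatic tumors.

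The stretches in front of 5 collagen genes are shown because these genes mark the different patterns described here. Col3a1 was the most abundant over all libraries, and Col8a1 and Col10a1 were among the widest differences in more than 1 comparison. Col11a1 was among the widest in KMC, and also in the MC minus HC difference, though on few reads in the MC table. Col7a1 had the opposite sign to most others in MC and in KMC, though not in the libraries labelled HC. Each is the 250 bases before the start of the gene, from the RefSeq promoter table of build GRCm38.p6, 5′ to 3′ on the strand of the gene, and no annotated exon overlaps it. Capitals mark matches on either strand of CCAAT, of TATAAA, of TGANTCA or of GGGCGG, and no matches of different motifs overlapped in these stretches.
Col3a1 (chr1:45311288-45311537, plus strand): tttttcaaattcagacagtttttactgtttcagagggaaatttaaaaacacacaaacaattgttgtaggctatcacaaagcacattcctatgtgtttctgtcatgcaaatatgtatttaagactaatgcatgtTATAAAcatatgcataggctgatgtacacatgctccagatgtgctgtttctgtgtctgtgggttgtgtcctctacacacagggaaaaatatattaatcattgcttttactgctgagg
Col8a1 (chr16:57754738-57754987, minus strand): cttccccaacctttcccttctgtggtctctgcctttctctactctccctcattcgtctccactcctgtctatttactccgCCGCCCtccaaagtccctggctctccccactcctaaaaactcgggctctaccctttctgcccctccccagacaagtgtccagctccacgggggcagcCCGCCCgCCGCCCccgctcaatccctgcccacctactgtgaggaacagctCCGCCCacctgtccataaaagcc
Col10a1 (chr10:34389731-34389980, plus strand): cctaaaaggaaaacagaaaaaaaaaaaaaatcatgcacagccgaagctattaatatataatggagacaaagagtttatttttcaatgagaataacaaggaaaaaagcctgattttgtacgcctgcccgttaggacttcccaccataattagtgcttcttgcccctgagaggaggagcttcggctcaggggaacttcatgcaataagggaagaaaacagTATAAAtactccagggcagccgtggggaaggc
Col11a1 (chr3:114030290-114030539, plus strand): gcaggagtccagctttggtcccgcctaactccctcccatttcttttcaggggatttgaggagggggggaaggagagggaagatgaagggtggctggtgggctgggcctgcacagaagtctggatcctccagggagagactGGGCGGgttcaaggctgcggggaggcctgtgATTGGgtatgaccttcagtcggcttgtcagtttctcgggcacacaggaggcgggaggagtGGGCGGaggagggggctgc
Col7a1 (chr9:108953336-108953585, plus strand): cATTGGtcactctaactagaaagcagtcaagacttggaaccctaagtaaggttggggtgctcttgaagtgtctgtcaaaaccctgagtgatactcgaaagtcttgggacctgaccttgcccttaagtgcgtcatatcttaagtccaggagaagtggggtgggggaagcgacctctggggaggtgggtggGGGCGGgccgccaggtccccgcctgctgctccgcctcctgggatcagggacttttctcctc
Among these 5, TATAAA was found in front of Col3a1, starting at base -117, and in front of Col10a1, starting at base -32. GGGCGG was found 4 times in front of Col8a1, 2 times in front of Col11a1 and 1 time in front of Col7a1, and CCAAT 1 time each in front of Col11a1 and Col7a1. TGANTCA was in none of the 5. The table matched 34 collagen genes with 36 such stretches, of which 61.1% held GGGCGG, against 32.7% of all 32851 stretches of the same length. CCAAT was in 33.3% of the collagen stretches and 33.9% of all, TATAAA in 13.9% and 12.4%, and TGANTCA in 2.78% and 6.75%. These are matches of letters only.

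Total counts per library ranged from 29766575 to 38745907. Levels are given as CPM, counts relative to library size after TMM scaling within each table, and each group was tested against its own control within a table. A model over the MC and HC tables and an alternative fit over the HC and KMC tables are named where used. The acinar enzyme list took 26.7 to 42.5% of all counts in the MC table, 18.2 to 49.9% in the KMC table and 4.14 to 6.37% in the HC table, and all 11 of its genes were detected in each. Map4k1, the gene of HPK1, had 8.31, 6.79 and 7.50 CPM in the MC libraries against 3.80, 4.14 and 2.34 in their controls. It had 5.92 and 11.4 CPM in the KMC libraries against 0.544 and 1.55 in KC. In the libraries labelled HC it had 7.32, 5.05 and 7.92 CPM, below the 15.4 and 11.5 of their controls, which goes against the label. The study itself describes HPK1 expression in acinar cells and high HPK1 kinase activity in pancreata of HC mice. Whether reads of the transgene count toward Map4k1 is not given in the sources used here. Its log2 fold change was 1.13 in MC, 2.99 in KMC and -0.99 in the libraries labelled HC (edgeR adjusted p = 0.11, 0.0796 and 0.145). The leukocyte markers, described below, had median log2 fold changes of 1.37, 2.20 and -0.90 in the same order. How much of the Map4k1 level came from leukocytes, and how much from the transgene, was not tested. By Xist and the Y-linked Ddx3y, both KC libraries were male and both KMC libraries female, and library HC 3 was male while the other 4 libraries of the HC table were female. Sex and age therefore cannot be told apart from M46 between KMC and KC.

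The collagen genes together took 0.111 to 0.483% of all counts in the MC table, 0.532 to 1.32% in the HC table and 0.0316 to 1.75% in the KMC table. In every library but KC 1, most of this RNA came from 3 fibrillar genes. Col1a1 and Col1a2, the chains of type I collagen, and Col3a1, the chain of type III collagen, made up 44.6 to 70.6% of the collagen counts of a library. Per kilobase of annotated exon, Col3a1 was the highest of all collagen genes in both MC table groups (117 CPM per kb in MC) and in both KMC table groups, and Col1a1 was the highest in both HC table groups (387 CPM per kb in the HC controls). Lengths were unions of all annotated exons, which lowers the per-kb level of genes with many transcript forms. In MC libraries Col3a1 had 117 ± 18.6 CPM per kb and Col1a1 85.7 ± 33.3 (SD, n = 3), a difference within their spread, although Col3a1 was above Col1a1 in each of the 10 libraries of the MC and KMC tables and below it in each of the 5 of the HC table. Next to the fibrillar genes, Col6a1, Col4a1, Col4a2 and Col6a2 ranked among the 9 highest in all 6 groups. At the other end, Col2a1 of cartilage had 29 counts in sum in the HC table and fewer than 10 in the KMC table, and the cartilage and bone marker list had at most 0.429 CPM in sum in any library that lists it.

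**Figure D1:**
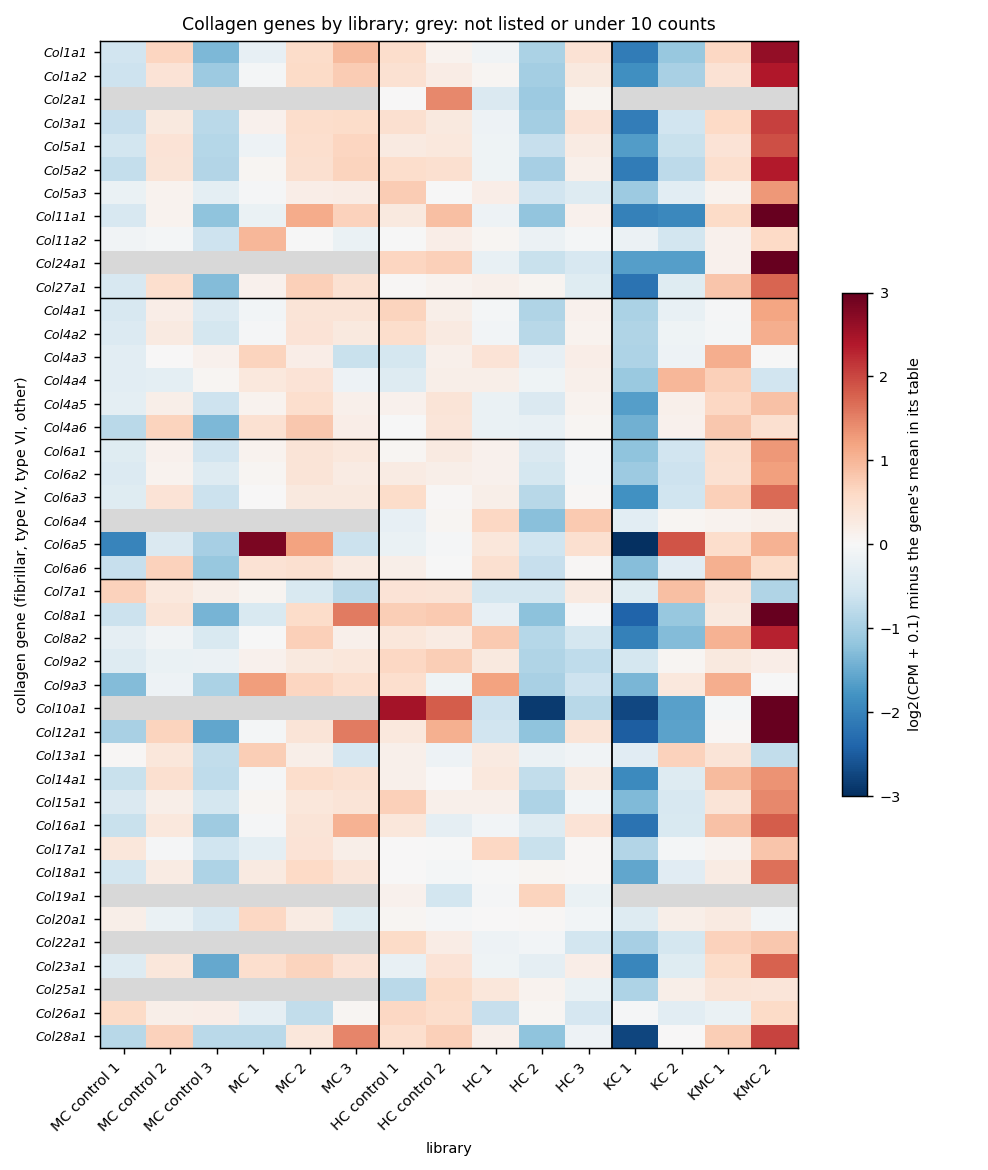
Each row is a collagen gene, grouped as fibrillar, type IV, type VI and other, and each column a library. Color shows log2(CPM + 0.1) minus the mean of the gene within its table, on a scale that ends at -3 and 3, and grey marks genes that are not listed or have under 10 counts. KC 1 is the bluest column of the KMC table for most rows and KMC 2 the reddest, MC control 2 is redder than the other MC controls, and HC 2 is the bluest column of the HC table.

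In MC mice, 31 of the 33 collagen genes tested had a higher fitted level than in controls, but none passed the test. The median log2 fold change of the 33 was 0.59, against -0.02 over all 13902 genes tested. Unadjusted p was under 0.05 for 6 higher genes (18.2%, against 9.2% of all genes tested) and for 1 lower gene, Col7a1. The groups did not overlap for 4 higher genes (12.1%, against 10.9%) and for 2 lower genes, Col7a1 and Col26a1. Shares of all genes in the lower direction are not given here. edgeR called 0 collagen genes (0.0% of all genes tested were called), and their adjusted p ran from 0.168 to 0.806. DESeq2 called Col9a3 and Col6a5 higher, 2 of 35, against 3.13% of all genes.

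The abundant fibrillar genes overlapped between the groups. Col3a1 had 942, 1258 and 1260 CPM in MC libraries 1, 2 and 3 and 534, 1065 and 498 in control libraries 1, 2 and 3, a log2 fold change of 0.72 ± 0.32 (SE). Col1a1 had 336, 579 and 773 CPM in MC and 267, 622 and 157 in controls, and Col1a2 had 330, 506 and 577 in MC and 224, 457 and 161 in controls. For all 3 genes, control 2 was level with the MC libraries and the other controls were below all of them. Control 2 was the highest of the 3 controls for 28 of 33 collagen genes. Without control 2, the median was 1.05 and edgeR called 9 of 34 collagen genes, all higher (Col3a1, Col5a2, Col9a3, Col27a1, Col1a2, Col6a6, Col18a1, Col14a1 and Col4a6), when 5.08% of all genes were called. Without any other library of this table it called 0.

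The type IV genes had fitted values from 0.23 to 0.76 and the 8 fibrillar genes tested from 0.24 to 0.75. Col4a1 and Col4a2, which are read head to head from a shared promoter and form the common type IV network, had 254 ± 45.3 and 135 ± 20.6 CPM in MC and 186 ± 50.8 and 102 ± 32.3 in controls (SD, n = 3), with log2 fold changes of 0.45 ± 0.23 and 0.41 ± 0.23 (SE). The other head-to-head pairs were low: Col4a5 and Col4a6 had log2 fold changes of 0.47 and 0.76, and Col4a3 and Col4a4, of the specialised networks of kidney and some other organs, 0.23 and 0.41. Col6a1, Col6a2 and Col6a3, the usual chains of type VI collagen, had log2 fold changes of 0.51, 0.45 and 0.33, with overlapping groups. Col6a5 had the highest fitted value, 2.86 ± 0.88 (SE; edgeR adjusted p = 0.233), from 14.7, 4.70 and 1.23 CPM in MC and 0.430, 1.43 and 0.943 in controls. MC 3 lay below control 2, so the groups overlapped, and most of the level was in MC 1. Col6a5 has an evolutionary copy in Col6a6, which had a log2 fold change of 0.55.

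Among the other collagens, Col9a3, a chain of fibril-associated type IX collagen, had 2.43, 1.57 and 1.41 CPM in MC and 0.330, 0.863 and 0.449 in controls (log2 fold change 1.69 ± 0.43 SE; edgeR adjusted p = 0.168). All MC libraries lay above all controls. Part of Col9a3 overlaps Tcfl5 on the other strand, and whether counting used strand is not given in the sources used here. Col8a1, of the short-chain network around vessels, had 2.91, 5.97 and 12.1 CPM in MC and 2.54, 5.27 and 1.48 in controls, and the groups overlapped (1.16 ± 0.59). Col18a1, a multiplexin of basement membranes, had 40.5, 51.1 and 43.1 CPM in MC and 22.8, 40.1 and 17.5 in controls (0.74 ± 0.29), without overlap, while Col15a1 (0.51) and Col14a1 (0.54) overlapped. Col7a1, the chain of the anchoring fibrils that tie epithelium to stroma, went the other way. It had 54.1, 37.4 and 29.0 CPM in MC, below the 82.5, 64.0 and 57.9 of the controls, a log2 fold change of -0.76 ± 0.24 (edgeR adjusted p = 0.244). Col26a1, under 1 CPM, was the other gene with a lower fitted level.

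Several marker lists had higher fitted levels in MC, with 0 markers called by edgeR. All 11 acinar enzymes had lower fitted levels, with a median log2 fold change of -0.77. They took 26.7 to 34.6% of all counts in MC and 31.5 to 42.5% in controls. DESeq2 called 0 of 10 fibroblast, 2 of 5 leukocyte and 6 of 6 adipocyte markers higher, against 3.13% of all genes. An unadjusted p under 0.05 was found for 7, 4 and 6 of them, all higher, against 9.2% of all genes tested. Of 5 smooth muscle and pericyte markers, DESeq2 called 1 and 1 had such a p. For 5 mesothelial markers these numbers were 0 and 2. All 10 fibroblast and stellate markers had a higher fitted level, and their summed level was 230 to 294 CPM in MC and 136 to 226 in controls. All 5 leukocyte markers listed were higher, with 164 to 239 CPM in sum against 60.8 to 147. All 6 adipocyte markers were higher, with 22.3 to 105 CPM against 1.39 to 10.5, and the highest sum was in MC 1, the library with most Col6a5. Smooth muscle and pericyte markers (5 of 5) were higher too, with 130 to 179 CPM in sum against 70.2 to 151. So were mesothelial markers (5 of 5), with 29.2 to 56.6 CPM against 23.5 to 39.05. Endothelial markers were higher for 7 of 8, with a median log2 fold change of 0.14 and 141 to 161 CPM against 116 to 152. Ductal markers had 3 higher and 3 lower, with a lower sum of 652 to 730 CPM against 796 to 904. No marker of these lists was at 0 in every library. Changes in cell number and in RNA per cell cannot be told apart in RNA of whole tissue. The part of these markers in the collagen levels was not tested.

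**Figure D2:**
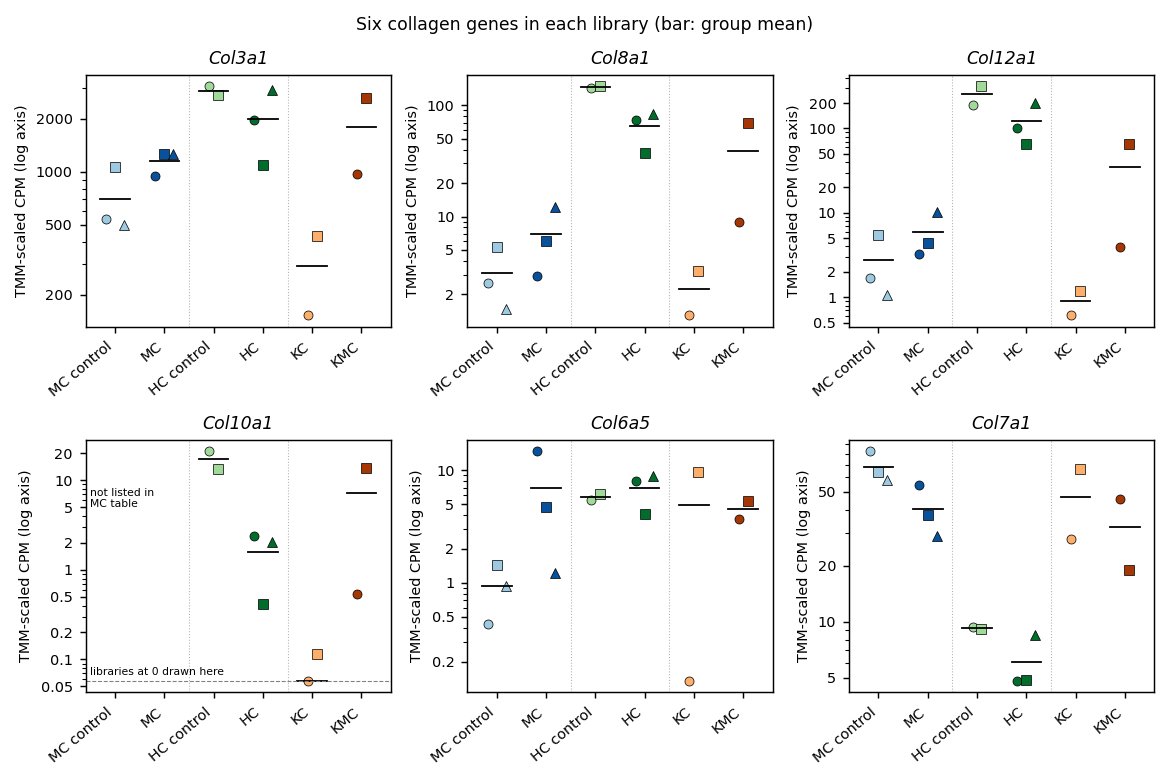
CPM of 6 collagen genes on log axes, with 1 point per library (circle, square and triangle for libraries 1, 2 and 3) and a bar for the group mean, with dotted lines between the 3 tables. Col8a1 and Col10a1 lie below their controls in the libraries labelled HC, where Col3a1 and Col12a1 overlap, and all 4 genes lie above KC in KMC. Col6a5 overlaps in every table, and Col7a1 is below its controls in MC as well as in the libraries labelled HC.

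In the libraries labelled HC, the direction was the opposite: 33 of 40 collagen genes tested had a lower fitted level than in controls, with a median log2 fold change of -0.38, against -0.00 over all 18407 genes. edgeR called 0 of them (0.565% of all genes were called). Unadjusted p was under 0.05 for 7 lower genes (17.5%, against 7.47% of all genes) and for 0 higher ones, and all 3 libraries lay below both controls for 14 genes (35.0%, against 16.1%). DESeq2 called 3 of 36 lower, Col10a1, Col8a1 and Col24a1, against 1.31% of all genes.

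Col10a1, a short-chain collagen best known from hypertrophic cartilage, had the widest gap, with 2.36, 0.413 and 2.03 CPM in libraries HC 1, 2 and 3 and 21.1 and 13.2 in the controls (log2 fold change -3.42 ± 0.61 SE; edgeR adjusted p = 0.0683). Col8a1 had 73.8, 37.0 and 84.2 CPM against 145 and 149 (-1.18 ± 0.31; adjusted p = 0.166), and Col24a1, a low fibrillar chain, 1.33, 0.953 and 1.11 against 2.52 and 2.66 (-1.19 ± 0.27; adjusted p = 0.118). For these 3 genes the groups were apart. The abundant fibrillar genes were not: Col3a1 had 1962, 1084 and 2906 CPM against 3061 and 2706, and Col1a1 1876, 1036 and 2703 against 2908 and 2178. Library HC 3 was within the range of the controls for both and HC 2 was lowest. HC 2 was the lowest of the 3 for 34 of 40 genes, and without it the median was -0.16 and 27 of 40 genes were lower. Without the male library HC 3, the median was -0.49.

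Col4a1 had 350 ± 119 CPM (SD, n = 3) against 552 ± 131 (n = 2), and Col4a2 253 ± 78.6 against 389 ± 47.9, with log2 fold changes of -0.66 ± 0.32 and -0.62 ± 0.27 (SE) and no overlap. Col4a5 (-0.42) and Col4a6 (-0.30) were lower too, whereas Col4a3 (0.30) and Col4a4 (0.17) were slightly higher, with overlapping groups. Col6a1, Col6a2 and Col6a3 had -0.26, -0.33 and -0.47, and Col6a5 0.26. Col18a1 was level, with 246, 256 and 252 CPM against 248 and 237, and Col14a1 had a log2 fold change of -0.06, while Col15a1 had -0.68 ± 0.33. All 10 fibrillar genes tested had lower fitted values, from -1.19 to -0.10.

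The fibroblast and stellate markers had 1029 to 1749 CPM in sum in the libraries labelled HC and 1803 to 1870 in their controls, with 7 of 10 lower. All 6 leukocyte markers were lower, with 237 to 361 CPM against 474 to 663. Markers of stomach and intestine were higher for 6 of 7 tested, with 8156 to 8246 CPM against 1765 to 3258, and the ductal markers had 4061 to 5116 CPM against 2746 to 2761. Endothelial markers were lower for 8 of 8, with 275 to 382 CPM in sum against 397 to 506. Smooth muscle and pericyte markers were lower in sum, with 352 to 453 CPM against 542 to 620. As a list they were not lower, with 3 genes higher, 3 lower and a median log2 fold change of -0.02. Mesothelial markers were higher for 4 of 5, with a median of 0.79 and overlapping sums of 143 to 403 CPM against 128 to 288. Markers of these lists were detected in every group, and their part in the collagen levels was not tested.

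**Figure D3:**
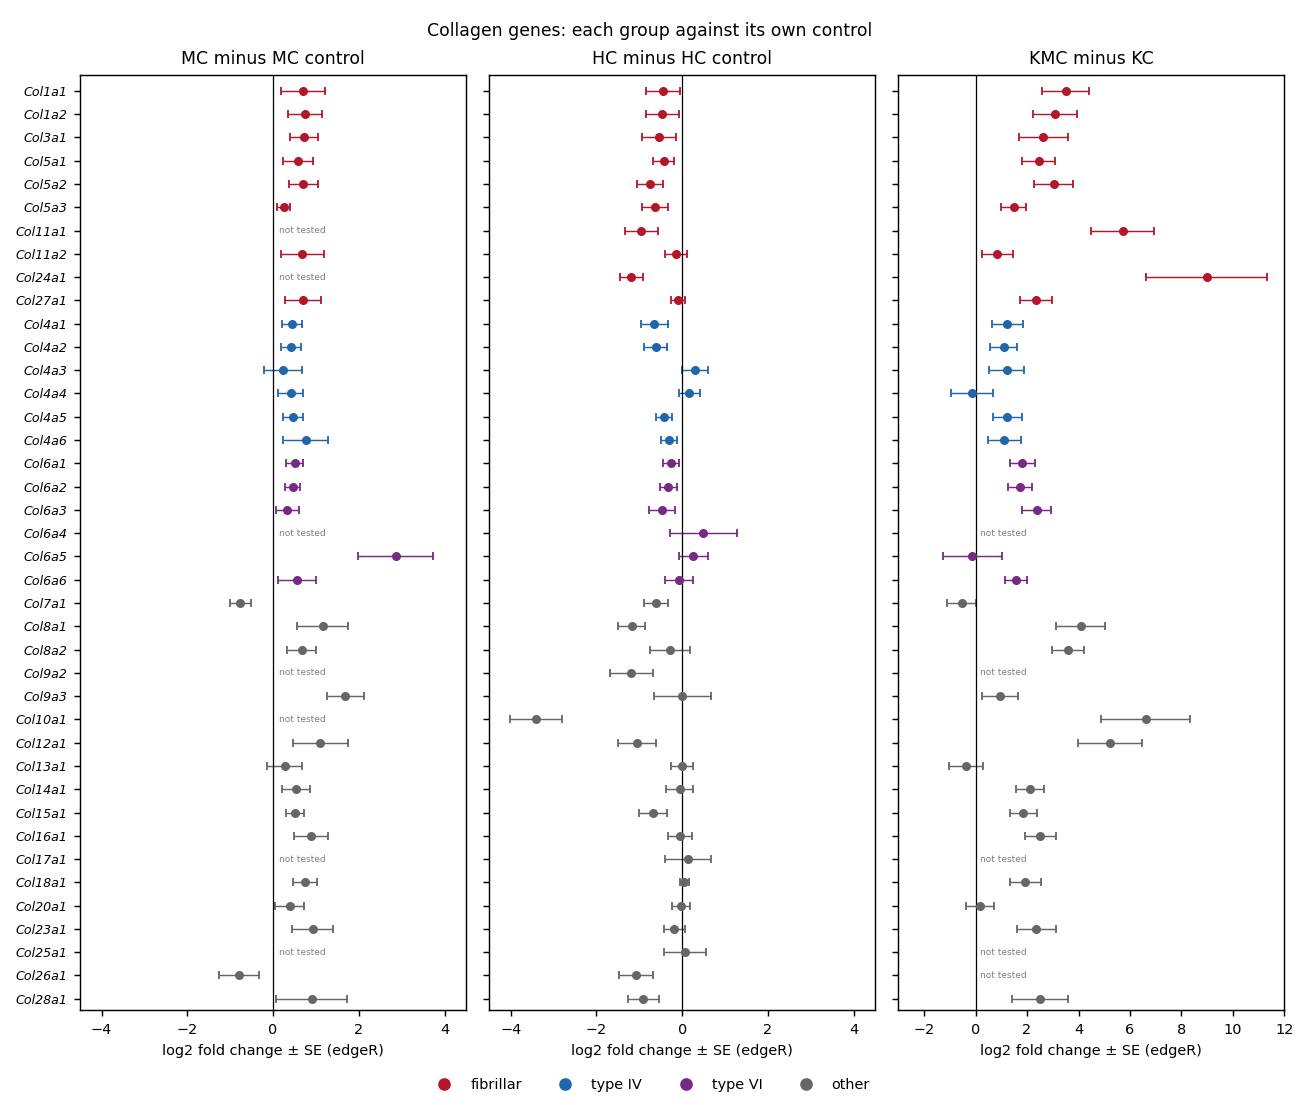
Log2 fold change of every tested collagen gene against the group's own control, with bars for the standard error of the edgeR fit, colored by class. Most points lie right of 0 in MC (31 of 33) and in KMC (31 of 35), and left of 0 in the libraries labelled HC (33 of 40); the KMC axis is wider than the other axes.

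The largest differences were between KMC and KC. Of 35 collagen genes tested, 31 had a higher fitted level in KMC, with a median log2 fold change of 1.94 against 0.03 over all 15733 genes, and both KMC libraries lay above both KC libraries for 29 of 35 (82.9%, against 34.4% of all genes). Unadjusted p was under 0.05 for 22 genes, all higher (62.9%, against 16.1% of all genes). edgeR called 0 collagen genes with adjusted p from 0.0796 up (0.0191% of all genes were called), while DESeq2 called 21 of 35, all higher (60.0%, against 9.93% of all genes). Of the alternatives, 6 made calls, from 21 to 28 each, and all the others called 0 collagen genes. The 19 genes called in each of these 6 were therefore not called in every alternative. The shares of all genes called in these settings are given below.

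By class, the median log2 fold change was 2.83 for 10 fibrillar genes, 1.73 for 5 type VI genes, 1.16 for 6 type IV genes and 2.24 for 14 others. DESeq2 called 8 of the 10 fibrillar, 4 of the 5 type VI and 9 of the 14 other genes, and 0 of the 6 type IV genes. The difference between classes was not tested. The shares of collagen RNA restate the same counts. Fibrillar genes held 51.3 and 57.0% of the collagen counts in KC and 68.3 and 78.0% in KMC, and type IV genes 21.2 and 17.5% in KC and 9.38 and 7.24% in KMC. In the MC table the fibrillar share was 66.1 to 72.4% in MC and 59.4 to 69.5% in controls, and it was 64.2 to 73.3% and 69.3 to 71.0% in the HC table, so these groups overlapped. In each of the 6 groups, the library with the lowest share of collagen in all counts also had the lowest fibrillar share of its group, and KC 1 was lowest of all 15 libraries in both.

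**Figure D4:**
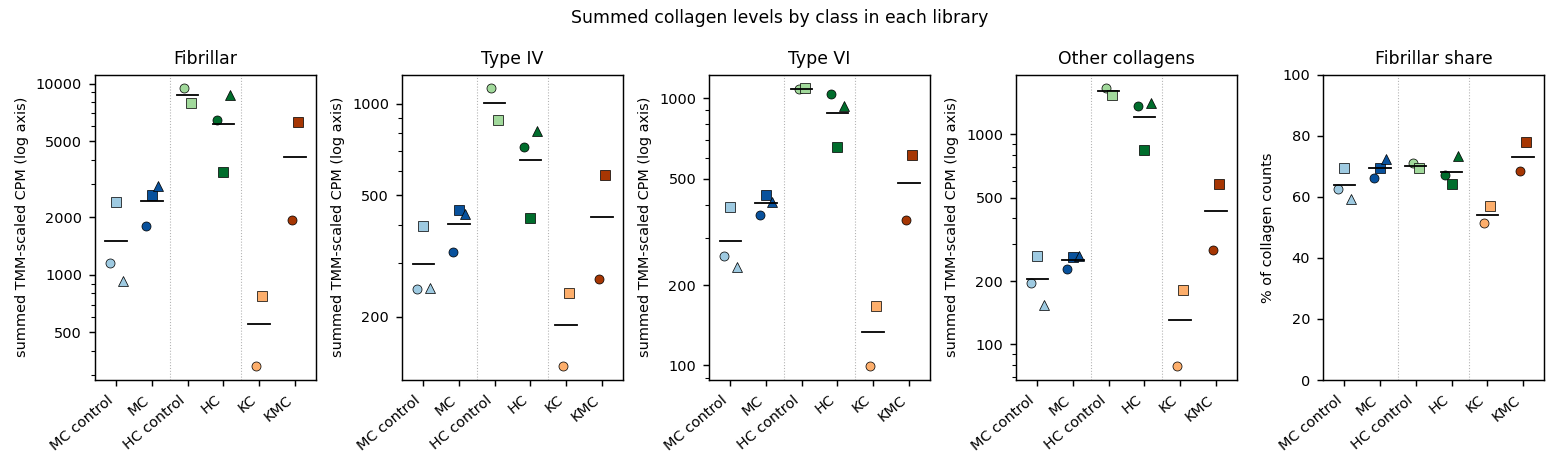
Summed CPM of each collagen class in each library on log axes, and in the last panel the fibrillar share of collagen counts in percent, with 1 point per library and a bar for the group mean. Both KMC libraries lie above both KC libraries in each panel, and the MC and control points overlap.

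Col1a1 had 413 and 1670 CPM in KMC libraries 1 and 2 and 63.0 and 122 in KC libraries 1 and 2, a log2 fold change of 3.49 ± 0.91 (SE; edgeR adjusted p = 0.102, DESeq2 adjusted p = 8.74e-07). Col1a2 had 363 and 1403 against 74.1 and 136 (3.07 ± 0.86), and Col3a1 969 and 2631 against 153 and 429 (2.63 ± 0.94). KMC 2 was far above KMC 1 for the type I chains, and the groups were apart. KMC 2 was the higher KMC library for 27 of 35 genes and KC 1 the lower KC library for 34 of 35. Without KMC 2, the median was 1.56 with 0 genes called, and without KMC 1 it was 2.23 with 22 of 40 called, when 13.5% of all genes were called.

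The widest gaps were in genes that were close to absent in KC. Col11a1, a chain that sets the width of collagen fibrils and is known as a marker of activated tumor stroma, had 1 and 2 counts in KC and 37 and 593 in KMC, a ratio of 68.3 from the pooled counts (95% interval 23.3 to 332). Col10a1 had 0 and 3 counts in KC and 22 and 1166 in KMC, a ratio of 129 (44.0 to 625). Col24a1 had 0 counts in both KC libraries and 10 and 231 in KMC, so it was at least 26.1-fold higher, taking 3 counts over the KC group as the floor. These intervals and the bound cover counting error only, and most of the counts were in KMC 2. Col12a1, a fibril-associated chain, had 3.95 and 65.6 CPM in KMC against 0.612 and 1.199 (5.21 ± 1.24; edgeR adjusted p = 0.091), and Col8a1 8.84 and 69.2 against 1.29 and 3.21 (4.08 ± 0.96; adjusted p = 0.0889). For Col8a2, the partner chain of Col8a1, 4.12 and 10.1 CPM in KMC stood against 0.408 and 0.735 in KC (3.59 ± 0.62; adjusted p = 0.0796).

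Col6a1, Col6a2 and Col6a3 had log2 fold changes of 1.82, 1.73 and 2.37, without overlap, and Col14a1, Col15a1 and Col18a1 had 2.12, 1.85 and 1.94. Col4a1 had 155 and 363 CPM in KMC and 82.7 and 137 in KC, and Col4a2 93.5 and 205 against 51.6 and 89.5, with log2 fold changes of 1.24 ± 0.59 and 1.08 ± 0.54. KMC 1 was just above KC 2 for both. The X-linked pair Col4a5 and Col4a6 had 1.22 and 1.12, and Col4a3 1.21. The 4 genes with lower fitted values all overlapped: Col7a1 had 45.7 and 19.0 CPM in KMC against 27.7 and 66.1 (-0.54 ± 0.56), Col13a1 had -0.39, Col4a4 -0.14 and Col6a5 -0.14. For Col7a1, Col13a1 and Col4a4, the fitted values turned positive when libraries were scaled by size alone (0.62, 0.81 and 0.97), a scaling that moved the median of all genes to 1.47. Col6a5 had 0.136 and 9.59 CPM in KC, with its level in KC 2, the library of the KMC table with the highest adipocyte sum (116 CPM).

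In KMC, the fibroblast and stellate markers had 294 and 444 CPM in sum against 148 and 165 in KC, with 10 of 10 higher. Endothelial markers were higher for 8 of 8, with 119 and 202 CPM against 102 and 110, and smooth muscle and pericyte markers for 5 of 5 tested, with 129 and 183 CPM against 55.6 and 75.6. The leukocyte markers had 171 and 367 CPM against 31.6 and 55.1, with 6 of 6 higher. Adipocyte markers were lower for 5 of 5 tested, with 32.5 and 8.20 CPM against 3.54 and 116. Mesothelial markers had 3 higher and 2 lower. The acinar enzymes took 35.2 and 18.2% of all counts against 49.9 and 45.3%. Collagen CPM divided by the fibroblast sum was 9.64 and 18.2 in KMC and 4.38 and 8.27 in KC. Col1a1 divided by Pdgfra, a fibroblast surface receptor, was 11.4 and 28.3 in KMC against 4.73 and 6.41 in KC, while in the MC table it was 7.02 to 19.4 in MC and 8.44 to 14.3 in controls. The part of cell number in these ratios was not tested.

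The MC difference minus the difference of the libraries labelled HC was tested in 1 model over the 4 groups of these tables. Because Map4k1 was lower in the libraries labelled HC than in their controls, though not called, this value is not given as M46 against HPK1. The HC part would enter with the opposite sign if its labels were turned, which was not tested. Of 36 collagen genes in both tables, 34 had a positive value, with a median of 0.94 against -0.03 over all 14884 genes. edgeR called 0 of them, when 1.77% of all genes were called higher. Unadjusted p was under 0.05 for 14, all positive (38.9%, against 12.3%), and DESeq2 called Col8a1 and Col11a1, 2 of 36, against 5.58% of all genes. The largest values among genes with a mean of at least 1 CPM over both tables were for Col11a1, Col6a5 and Col8a1. They were 2.66 ± 0.92, 2.59 ± 1.06 and 2.33 ± 0.75 (SE, edgeR adjusted p = 0.116 for Col8a1). Col11a1 reached that mean through the HC table, with 5.53 CPM in the libraries labelled HC and 10.7 in their controls. In the MC table it had 0.257 CPM in MC and 0.0716 in controls and was not tested within that table. Col11a1 had at most 17 counts in an MC table library, so its part of the difference there rests on few reads. Within each table, Col8a1 had 1.16 (MC) and -1.18 (libraries labelled HC), and Col6a5 had 2.86 and 0.26. Only Col7a1 (-0.15) and Col4a3 (-0.08) were negative, and both turned positive under scaling by library size alone. Age, library kit and control genotype differ between the experiments and cannot be told apart from the transgene. Without MC control 2, edgeR called 14 of 36, when 10.6% of all genes were called, and without HC 1 it called 3 (Col9a3, Col9a2 and Col8a2). The share of all genes called without HC 1 is not given here, so these 3 are not read as a result about collagen. Col9a2 had 25 counts in sum in the MC table and rests on few reads.

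Genes that make, trim and hold collagen were followed in 5 lists. edgeR called 0 genes of these lists in any of the 3 comparisons, and the numbers with an unadjusted p under 0.05 are given below by list. In the list of collagen synthesis and folding in the endoplasmic reticulum, 17 genes were tested in MC, with 11 higher, and 18 in the libraries labelled HC, with 14 lower, and in KMC, with 10 higher and 8 lower. In sum this list had 1666 and 1156 CPM in KMC libraries 1 and 2, below the 4357 and 2391 in KC libraries 1 and 2. DESeq2 called 1 lower in the libraries labelled HC (P4ha3), and 5 higher and 1 lower in KMC. For comparison, DESeq2 called 3.13% of all genes higher in MC, 1.31% lower in the libraries labelled HC and 9.93% higher in KMC, and unadjusted p was under 0.05 for 9.2, 7.47 and 16.1% of all genes in these directions, which are the shares to read all 5 lists against. Unadjusted p was under 0.05 for 1 lower gene in MC, 4 lower in the libraries labelled HC, and 8 higher and 1 lower in KMC. Shares of all genes lower in MC or KMC are not given here, so counts of lower genes there are not read as a result about any list. Plod2, a lysyl hydroxylase that prepares cross-links, had a log2 fold change of 3.17 ± 0.57 in KMC and -0.82 ± 0.25 in the libraries labelled HC. Fkbp10, a chaperone of procollagen, had 2.43 ± 0.55 in KMC, and P4ha3, a prolyl hydroxylase subunit, -1.50 ± 0.37 in the libraries labelled HC. In MC the smallest p values of this list were those of Mia3, which exports procollagen from the endoplasmic reticulum (-0.49 ± 0.16), and Plod1 (0.31 ± 0.15).

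Of 12 procollagen cleavage and cross-linking genes tested in each comparison, 12 were higher in MC, 10 were lower in the libraries labelled HC and 12 were higher in KMC, where DESeq2 called 8. In these directions, 3, 2 and 8 of them had an unadjusted p under 0.05. Loxl1, a cross-linking oxidase, had 2.23 ± 0.48 in KMC, and Adamts2, which removes the amino-terminal propeptide, 2.21 ± 0.49. Bmp1, which removes the carboxyl-terminal propeptide, had -0.68 ± 0.21 and Loxl2 -0.49 ± 0.20 in the libraries labelled HC. In MC, Adamts3 had 1.31 ± 0.40 and Loxl3 0.73 ± 0.28. All 9 fibril-binding matrix genes were higher in MC and in KMC, where DESeq2 called 7, and 6 of 9 were lower in the libraries labelled HC. DESeq2 called 2 lower in the libraries labelled HC. An unadjusted p under 0.05 was found for 4 in MC, 8 in KMC and 3 in the libraries labelled HC. Lum and Tnc had 2.78 ± 0.43 and 5.94 ± 1.19 in KMC, Postn and Tnc -1.01 ± 0.28 and -1.25 ± 0.36 in the libraries labelled HC, and Dcn and Sparc 0.74 ± 0.24 and 0.65 ± 0.25 in MC.

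Of the 12 basement membrane partners of type IV collagen, 11 were higher in MC, 12 were lower in the libraries labelled HC and 12 were higher in KMC, with 5 called by DESeq2. Without adjustment, p was under 0.05 for 6 higher and 1 lower in MC, 3 lower in the libraries labelled HC and 7 higher in KMC. In MC, Agrn had 0.73 ± 0.23 and the laminin chain Lama5 -0.53 ± 0.16. Lama1 had 4.68 CPM on average in KMC and 0.0193 CPM in KC (DESeq2 adjusted p = 5.06e-05), and a log2 fold change of -0.93 ± 0.27 in the libraries labelled HC. Npnt had 2.98 ± 0.74 in KMC and -0.41 ± 0.10 in the libraries labelled HC. Of the 9 collagen receptors, 6 were higher in MC, 8 were lower in the libraries labelled HC and 9 were higher in KMC. DESeq2 called 1 of them in MC and 3 in KMC, and unadjusted p was under 0.05 for 1 higher and 1 lower in MC, 1 lower in the libraries labelled HC and 5 higher in KMC. Lair1, a collagen receptor of leukocytes, had 1.34 ± 0.40 in MC and -0.66 ± 0.12 in libraries labelled HC, and for the epithelial receptor Ddr1 the values were -0.32 ± 0.11 (MC) and 0.21 ± 0.11 (libraries labelled HC). In KMC, Mrc2, which takes up collagen, had 2.43 ± 0.48 and Itga2 3.92 ± 1.03.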

How the data were processed

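RNA-Seq was performed on pooled mouse pancreas RNA, and the authors deposited 3 tables of raw counts per gene. The submitters' processing notes name bcl2fastq 2.17.14, STAR 2.6.1a, HTSeq 0.6.1, DESeq2 and build mm10. The strand setting of counting is not given in the sources used here. Library preparation is described differently for the MC table than for the other tables, and the MC table lists 15175 genes against 49585. A deposited table of the authors' own fold changes and adjusted p-values for MC was not used.

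Counts were filtered with filterByExpr, scaled by TMM and tested with the quasi-likelihood test of edgeR 4.0.16 in R 4.3.3, separately for each table, except for 1 model over the MC and HC tables and an alternative fit over the HC and KMC tables. SE was obtained from each log2 fold change and its F statistic (size of the change over the root of F). A gene was called where its p, adjusted by Benjamini-Hochberg over all genes tested, did not exceed 0.05 and its level differed by 1 or more on the log2 scale. DESeq2 1.42.0, other scalings and filters, a replicate block, and leaving out each library were alternatives. Ratios of pooled low counts have exact 95% intervals. The fits were tested on simulated data.

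Named with values were the 3 most abundant genes of each class, the head-to-head type IV pairs and called genes. So were the 2 genes with the smallest p in each pathway list. The 3 largest rises and falls per comparison were named among genes with a mean of at least 1 CPM. That mean was taken over the libraries compared, which for the difference were those of both tables. Other collagen genes given with values were chosen after their values were seen. The members and lists were chosen with earlier results of these data known. One allele of the mice is not reported here.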

Additional observations from a re-analysis of the deposited data

How the results depend on the processing

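The median log2 fold change of the collagen genes kept its sign in every alternative run. Leaving out each library in turn, it ranged from 0.39 to 1.05 in MC, from -0.49 to -0.16 in the libraries labelled HC and from 1.49 to 3.07 in KMC. Scaling by library size alone moved it to 3.43 in KMC, and moved the median of all genes to 1.47. That scaling and the one without acinar genes moved the median of all genes to 0.29 and 0.13 in MC, to 0.34 and 0.18 in the MC minus HC difference, and the latter to 0.97 in KMC.

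Counts of called collagen genes depended on the setting. DESeq2 called 2 in MC, 3 in the libraries labelled HC, 21 in KMC and 2 in the difference, where edgeR called 0; of all genes it called 3.28, 3.03, 13.8 and 6.94%. Leaving out each library gave 0 to 9 in MC, 0 to 1 in the libraries labelled HC (1 without HC 1), 0 to 22 in KMC and 0 to 14 in the difference. No filter gave 2 in the libraries labelled HC (1.26% of all genes). In KMC, library size alone gave 28, library size without acinar genes 26, and a joint fit with the HC libraries 21, when 30, 22.5 and 17.3% of all genes were called. Where a library left out leaves 1 in a group, that library is assumed to vary like the other group.

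Deviations from the group means of same-numbered libraries correlated at 0.07, 0.30 and -0.30 in the MC table. Differently numbered ones ranged there from -0.39 to 0.35, so no pairing by number was seen. Same-numbered libraries had 0.19 and 0.17 in the HC table and 0.05 and 0.05 in the KMC table. Where a group holds 2 libraries, their deviations mirror each other, so these values cannot show whether numbers pair the samples. The replicate block gave 0 calls in MC and in the difference, 2 in the libraries labelled HC and 24 in KMC (1.84 and 15.7% of all genes), with medians of 0.65, -0.48 and 1.91 in the 3 tables. With the block, Col6a5 had -0.012 in the libraries labelled HC and Col7a1 0.13 in the difference.

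Reversals were in genes with small fitted values. With library size alone, KMC values were 0.62 for Col7a1, 0.81 for Col13a1 and 0.97 for Col4a4, and without acinar genes 0.21, 0.40 and 0.58. In the difference, Col7a1 and Col4a3 had 0.17 and 0.27 with library size alone and 0.031 and 0.12 without acinar genes. Leaving out each library, Col4a3 ranged from -0.13 to 0.55 in MC, from -0.0035 to 0.68 in the libraries labelled HC and from -0.47 to 0.25 in the difference. Col4a4 ranged from -0.088 to 0.47 and Col14a1 from -0.24 to 0.21 in the libraries labelled HC. In KMC, Col7a1 ranged from -1.32 to 0.22, Col13a1 from -1.13 to 0.28 and Col4a4 from -0.998 to 1.46, and Col7a1 in the difference from -0.43 to 0.16. The cause was not tested. Groups of 2 or 3 pooled libraries limit the precision of every value, and genes under 1 CPM rest on few reads.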
